A study of Mus musculus with 12 samples.

Results

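The 5-FU response of Tespa1-/- LSKs was taken from 6 of the 12 libraries of the series: 3 from untreated Tespa1-/- mice and 3 from Tespa1-/- mice whose LSKs were sorted 9 days after the drug. LSKs are the Lin- Sca-1+ c-Kit+ cells of the BM, a fraction that holds the HSCs and the multipotent progenitors. The 6 libraries were taken by their labelled genotype and treatment, though the comparison was chosen with earlier results of these data known. The whole table of 53465 genes was tested for the difference between them, and 17228 genes passed the filter on low counts.

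5-FU is a fluoropyrimidine that blocks thymidylate synthesis and damages the RNA and DNA of dividing cells. It kills cycling progenitors, and the surviving HSCs are then recruited into the cycle and rebuild the BM in the days that follow. The c-Kit antigen is known to drop in the first days after the drug, so LSKs sorted in the recovery phase are cells that again carry c-Kit and Sca-1 and lack the lineage antigens. Tespa1 was first described as a thymocyte protein of T cell receptor signalling, and the study examines it in HSCs under stress.

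Both groups were male mice, 8 to 10 weeks old, of the knockout strain B6.129S-Tespa1tm1Smoc, crossed back to C57BL/6. The treated group was given 150 mg/kg 5-FU once, by intraperitoneal injection, and its LSKs were sorted on day 9. The untreated group was given no 5-FU. The Tespa1+/+ mice, untreated or given the same dose, are given beside them for comparison. BM was depleted of lineage cells with a kit and sorted with antibodies to CD3e, CD11b, Gr-1, B220 and Ter-119 beside Sca-1 and c-Kit. The labels do not say whether the 3 libraries of a group came from separate mice, so the p-values measure the spread between these libraries, which may be technical. In such bulk samples, a change in the share of cells that carry a transcript and a change in its amount per cell cannot be told apart.

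The 3 untreated Tespa1-/- libraries held between 22593985 and 23122811 counts, and the 3 libraries after 5-FU between 22118154 and 27445161. At least 1 count was found for 27219 to 29523 genes in the untreated libraries and for 21871 to 22135 genes after 5-FU, although the totals were similar. Genes with only 1 to 3 counts numbered 5518 to 7030 and 2683 to 2851, respectively, and the part of this difference in the calls was not tested. Levels are given as CPM, the counts scaled to the size of the library. A floor of 3 counts corresponded to 0.109 to 0.136 CPM over the 12 libraries and covers counting error only. No library was a copy of another: pairs of replicates had a median chi-square over genes of 2.08 to 5.87, and sampling alone gives 0.45.

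The targeted gene, Tespa1 (10:130322870-130364111, GRCm38), was still counted in the knockout. It stood at 34.5, 34.9 and 34.9 CPM in the untreated libraries and at 20.7, 19.6 and 17.2 CPM after 5-FU, a fall of 0.86 on the log2 scale (SE 0.10, adjusted p 0.00065, edgeR's quasi-likelihood test). In Tespa1+/+ LSKs the mean level was 46.8 CPM before and 53.1 CPM after 5-FU. A count for the whole gene says nothing of the deleted part, so this level does not check the knockout. Cops6, a subunit of the COP9 signalosome, had a mean of 42.4 CPM ± 3.31 (SD, n = 3) before and 47 CPM ± 3.24 after 5-FU, with an adjusted p of 0.318. Myc, the growth-control transcription factor that the study follows, went from 185, 209 and 184 CPM to 128, 135 and 151 CPM. Its log2 difference of -0.49 (SE 0.08) passed the adjusted p (0.00275) but not the fold threshold.

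The genes of the sort gate were read on the authors' FPKM scale, which divides by gene length. Kit, the c-Kit receptor, lay between 27.1 and 28.2 FPKM in the untreated libraries and between 25.2 and 27 FPKM after 5-FU. Ly6a, which encodes Sca-1, lay between 3.6 and 7.35 FPKM before and between 3.05 and 5.85 FPKM after 5-FU, with overlapping groups. Transcripts of several lineage antigens were lower before treatment than after it. Ptprc, whose products include B220, had means of 10.9 and 10.2 FPKM. Mean Itgam, the CD11b chain, was 4.23 and 9.84 FPKM. Cd3e of T cells and Ly6g of neutrophils had 0 counts in all 3 untreated libraries and means of 0.204 and 0.973 FPKM after 5-FU. The labelled cell type was thus carried by Kit and Ly6a in every library, with lineage transcripts beside them after 5-FU.

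A gene was called when its Benjamini-Hochberg adjusted p was below 0.05 and its fold change above 1.5. By this rule 1033 genes were higher after 5-FU (6.0% of those tested) and 702 were lower (4.07%). Without the fold threshold the adjusted p was passed by 10.7% of genes in the higher and 8.64% in the lower direction. The 3 libraries of one group lay entirely above or below those of the other for 38.6% of all genes tested. Of the genes called higher, 686 changed by more than 2-fold, 340 by more than 4-fold and 161 by more than 10-fold, and 89.5% were protein-coding. Of the genes called lower, 357 passed 2-fold and 81 passed 10-fold, 72.6% were protein-coding, and 12.7% belonged to the annotation class of unverified transcripts (TEC). Among the lower genes, 65 had at most 3 counts in every library after 5-FU. The median log2 fold change over all genes tested was -0.01.

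The 10 largest rises were taken among called genes with a mean of at least 5 CPM in the higher group, groups that did not overlap and no predicted genes, so lower-expressed genes with larger folds are not among them. Several are genes of granulocytes. Chil3, a chitinase-like protein of myeloid granules, had 0 counts in all 3 untreated libraries and 55.3, 54.9 and 48.2 CPM after 5-FU, at least 400.2-fold above the floor of 3 counts per library. Cd177, a neutrophil surface glycoprotein, had 0 counts before and 27.6, 33.4 and 31.2 CPM after 5-FU, at least 232.9-fold. Retnlg and Wfdc21, a resistin-like and a whey acidic protein domain gene of neutrophils, were also at 0 counts before and rose by at least 79.9-fold and 74.6-fold. Ltf, the lactoferrin of secondary granules, went from 0.307, 0.177 and 0 CPM to 141, 158 and 153 CPM. Mmp9, the gelatinase of tertiary granules, stood at 26.5, 23.5 and 22.8 CPM after 5-FU, 333 times its untreated counts with a 95% counting interval of 142 to 1025.

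Other genes of the 10 are known from eosinophils. Prg2 (2:84980461-84983632), the major basic protein, had 0.878, 0.887 and 1.14 CPM before and 386, 383 and 399 CPM after 5-FU. Epx (11:87864000-87875536), the eosinophil peroxidase, had 0.527, 0.576 and 0.699 CPM before and 185, 211 and 205 CPM after 5-FU. Alox15, a 15-lipoxygenase of eosinophils, had 2 counts in the untreated libraries together, all in 1 library, and reached 14.7, 9.86 and 10.3 CPM, a count ratio of 399.9 with a 95% interval of 110.4 to 3307. Gzma, the granzyme A of NK and T cells, was the remaining gene among the 10 largest rises, with 10.8, 9.36 and 12 CPM after 5-FU and 2 counts in the untreated libraries together (count ratio 364, 95% interval 100.4 to 3009.8).

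Within the same limits, the 10 largest falls were led by Rprl3 (8:3803069-3803358), an RNase P RNA-like gene annotated as a ribozyme. It had 627, 630 and 589 CPM in the untreated libraries and 1, 2 and 0 counts after 5-FU, a count ratio of 15529 with a 95% interval of 5313 to 75305. As RNase P RNA genes are near copies of each other and have no poly-A tail, how reads were assigned between them is uncertain. Slc27a2, a fatty acid transporter and acyl-CoA synthetase, fell from 4.22, 10.2 and 4.46 CPM to 0.218, 0.424 and 0 CPM. St8sia1, the sialyltransferase of ganglioside GD3, fell from 8.29 CPM ± 1.58 to 0.84 CPM ± 0.311 (SD, n = 3). Shisa8 fell from 19 to 3.06 CPM, Col19a1, a collagen chain, from 5.76 to 1.04 CPM, and Sema3d, a secreted semaphorin, from 17.6 to 3.32 CPM. Tlr7, the endosomal receptor for single-stranded RNA, had 25.5, 10.2 and 24.8 CPM before and 2.54, 6.63 and 2.84 CPM after 5-FU. Replicate 2 was the lowest untreated and the highest treated library. Ccser1, Myl10 and Zfp618 completed the 10, with log2 fold changes of -2.38, -2.21 and -2.19.

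HSC genes changed in both directions. Of the 28 stem cell genes tested, 11 were called higher and 4 lower, with a median log2 fold change of 0.25, beside 6.0%, 4.07% and -0.01 over all genes. Their summed level was 1459 to 1502 CPM before and 1419 to 1454 CPM after 5-FU, slightly lower, and in Tespa1+/+ LSKs 1675 to 1736 CPM before and 2061 to 2112 CPM after. Vwf, the von Willebrand factor that marks platelet-biased HSCs, rose from 18.5, 16.1 and 13.9 CPM to 97.9, 80.2 and 89.8 CPM (log2 fold change 2.46, SE 0.12, adjusted p 4.23e-06). Slamf1, the CD150 antigen of the SLAM code for HSCs, rose from 2.77, 2.93 and 3.19 CPM to 12.3, 16.5 and 13.6 CPM (2.25, SE 0.19). Tek, the TIE2 receptor for angiopoietins of the niche, rose from 8.04, 4.3 and 5.59 CPM to 18, 21.5 and 18.2 CPM (1.68, SE 0.23). In all 3 genes the lowest treated library stood above the highest untreated one. Groups without overlap, in either direction, were found for 38.6% of all genes tested.

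Regulators at the centre of the HSC programme moved less. Mecom, the transcription factor EVI1, was at 20.5, 20.2 and 20.6 CPM before and 38.8, 30 and 27.6 CPM after 5-FU (0.65, SE 0.14, adjusted p 0.0108), and without treated replicate 1 its log2 fold change of 0.49 was under the fold threshold. Procr, the EPCR antigen, stood at 4.28 CPM before and 6.81 CPM after 5-FU (adjusted p 0.0353), and its call was lost whichever of the 6 libraries was left out (adjusted p 0.0507 to 0.129). Hlf, a factor of long-term HSCs, had 45.9, 60.4 and 52.1 CPM before and 59.6, 32.9 and 44 CPM after 5-FU, with overlapping groups and an adjusted p of 0.497. Meis1, the HOX cofactor, had a log2 difference of -0.19 (SE 0.07) and an adjusted p of 0.0916. Neither of these 2 passed the test.

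The 4 stem cell genes called lower were Cd34, Fgd5, Hoxa9 and Sult1a1. Cd34, the sialomucin that short-term HSCs and progenitors carry and dormant HSCs lack, fell from 336, 333 and 317 CPM to 159, 155 and 152 CPM (-1.08, SE 0.05, adjusted p 1.85e-06). Fgd5, a guanine exchange factor used to mark HSCs, fell from 11.8 to 7.11 CPM, a call that was lost without untreated replicate 1 (adjusted p 0.0619). Hoxa9, a homeobox factor of progenitor growth, fell from 42.3 to 26.6 CPM, lost without treated replicate 1 or 3 or untreated replicate 3 (adjusted p 0.0549 to 0.0686). Sult1a1, a sulfotransferase, went from 1.31 to 0.293 CPM and lost its call whichever library was left out (adjusted p 0.054 to 0.173). Of the 4, Cd34 kept its call without any single library, and 2 members were called lower without replicate 1 or 3 of either group.

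**Figure D1:**
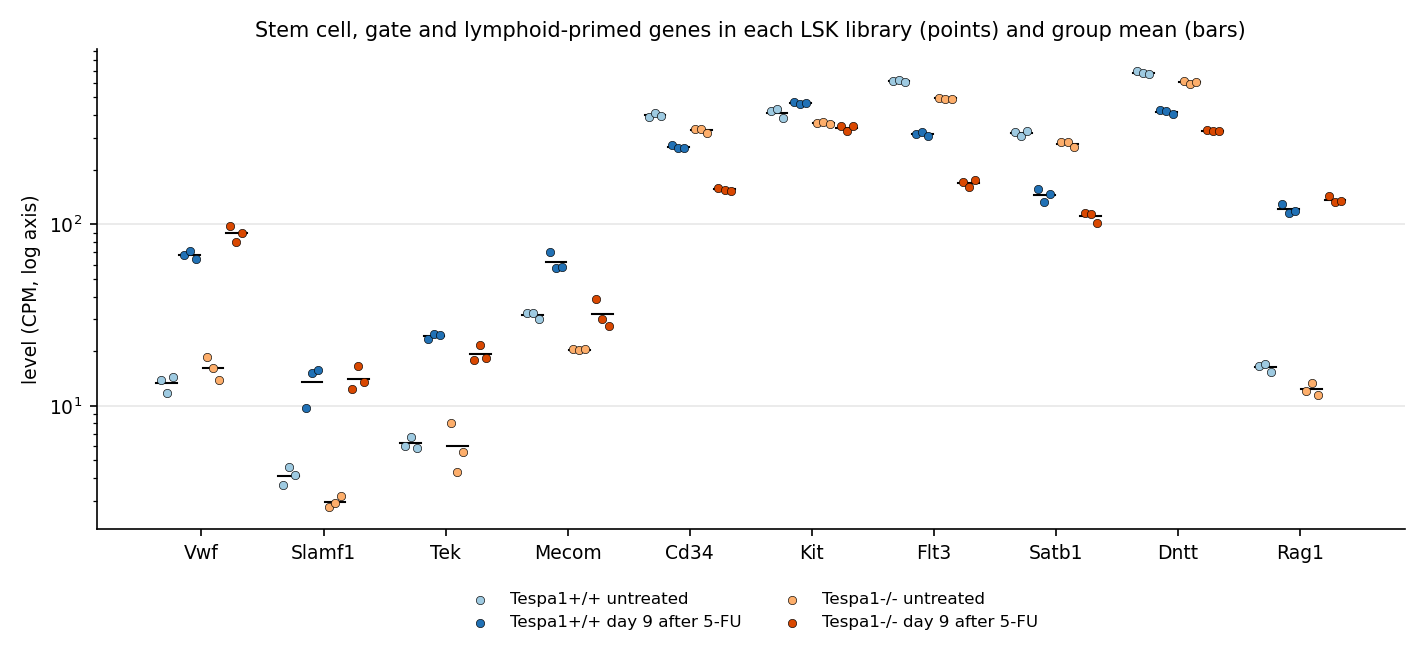
Level of 10 stem cell, gate and lymphoid-primed genes in CPM (log axis) in each of the 12 LSK libraries, coloured by genotype and treatment, with the group mean as a bar. In Tespa1-/- LSKs Vwf, Slamf1, Tek and Rag1 stood higher after 5-FU, Cd34, Flt3, Satb1 and Dntt lower, and Kit moved little.

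Lymphoid-primed progenitors are the LSKs with high Flt3 that have lost megakaryocyte and erythroid fate, and more of their genes were called lower than higher after 5-FU. Of the 20 tested, 8 were lower and 2 higher (median -0.29), beside 4.07% and 6.0% of all genes. Flt3 (5:147330741-147400489), the cytokine receptor that defines them, fell from 496, 492 and 492 CPM to 170, 161 and 174 CPM (-1.55, SE 0.04, adjusted p 1.38e-07). Satb1, a chromatin organizer of lymphoid priming, fell from 284, 284 and 268 CPM to 116, 114 and 102 CPM (-1.34, SE 0.06). Dntt, the terminal transferase of V(D)J joins, fell from 607 CPM ± 10.5 to 326 CPM ± 2.11 (SD, n = 3), and Notch1, the receptor of T cell fate, from 388 CPM ± 3.49 to 204 CPM ± 11.7. The spread within each group was small beside these differences. The summed level of the list was 3139 to 3251 CPM before and 2147 to 2202 CPM after 5-FU.

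Rag1 and Rag2 were the 2 genes of the list called higher. The count was 1 without treated replicate 2 or any untreated library, and 3 without treated replicate 1 or 3. Rag1, the recombinase gene that opens V(D)J recombination, rose from 12.1, 13.3 and 11.5 CPM to 144, 133 and 134 CPM (3.47, SE 0.08, adjusted p 4.66e-08). Its partner Rag2 rose from 7.93 to 12.2 CPM (0.61), and its call was lost without treated replicate 2 or any of the 3 untreated libraries (adjusted p 0.0535 to 0.0875). Il7r, the interleukin-7 receptor of lymphoid progenitors, had 12.4, 13.8 and 13.3 CPM before and 23.5, 21.6 and 14.2 CPM after 5-FU, which did not pass the test (adjusted p 0.067). Without treated replicate 3, Il7r was called at a log2 fold change of 0.77 (adjusted p 0.00931).

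Most B cell genes rose. Of the 16 tested, 13 were called higher and none lower (median 2.80), beside 6.0% and 4.07% of all genes. Pax5, the factor of B cell commitment, rose from 4.79, 7.4 and 8.96 CPM to 71.5, 87.5 and 80.5 CPM (3.50, SE 0.20). Ebf1, which acts before it, rose from 10.2, 10.5 and 10.5 CPM to 107, 119 and 115 CPM (3.44, SE 0.08, adjusted p 3.94e-08). Cd79a, the signalling chain of the B cell receptor, rose from 4.18 to 23.4 CPM. The summed list was at 112 to 124 CPM before and at 519 to 537 CPM after 5-FU. The sort removed B220+ cells, and the part of cells that escaped it in these values was not tested.

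The 16 T and NK cell genes tested gave 9 calls higher and 2 lower (median 1.69), beside 6.0% and 4.07% of all genes. Their levels were low. When every library had to hold at least 10 counts, 4 were called higher (median 0.64). Cd3e, of the T cell receptor complex, had 0 counts before and 1.38, 0.732 and 0.63 CPM after 5-FU, at least 6.92-fold higher against the floor. The 2 lower genes were Lck, a kinase of T cell receptor signalling, from 30.8 to 15 CPM, and Cd4, from 5.36 to 1.83 CPM. The call of Cd4 was lost without untreated replicate 1 or 2 (adjusted p 0.0536 and 0.0686).

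Erythroid genes rose throughout. All 24 members tested were called higher (median log2 fold change 2.86), against 6.0% of all genes. Gata1, the master factor of red cells and megakaryocytes, rose from 9.62, 10 and 10.8 CPM to 36.6, 41.8 and 33.3 CPM (1.87, SE 0.13), and Klf1, which switches on the adult globin genes, from 7.66 CPM ± 2.08 to 34 CPM ± 2.97 (SD, n = 3). Epor, the erythropoietin receptor, rose from 2.11, 2.75 and 1.84 CPM to 15.7, 16.3 and 15.6 CPM (2.83, SE 0.20). Slc4a1, the anion exchanger of the red cell membrane, had the largest log2 fold change of the list (8.09, SE 0.18, adjusted p 3.94e-08), from 0.439, 0.177 and 0.393 CPM to 99.7, 88.2 and 91.7 CPM. The globin gene Hba-a1 rose from 1.76, 7.31 and 2.62 CPM to 129, 137 and 122.8 CPM. Hbb-bt rose from 3.71 to 87.5 CPM. Globin genes come in near-identical copies, so reads could be split between them. The summed list was at 376 to 395 CPM in the untreated libraries and at 1482 to 1540 CPM after 5-FU.

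Most megakaryocyte and platelet genes rose as well. Of the 20 tested, 16 were called higher and none lower (median 1.17), beside 6.0% and 4.07% of all genes. Without treated replicate 3, 1 was called lower. Itga2b, the CD41 integrin chain, rose from 54.9, 54.8 and 53.4 CPM to 120, 124 and 126 CPM (1.17, SE 0.06, adjusted p 3.3e-06). Pf4, platelet factor 4, rose from 4.74, 6.12 and 5.59 CPM to 35, 35.9 and 35.8 CPM (2.69, SE 0.13). Thbs1, the thrombospondin of platelet granules, rose from 3.66 CPM ± 1.43 to 30.7 CPM ± 4.92 (SD, n = 3). The summed list stood at 368 to 418 CPM before and at 670 to 714 CPM after 5-FU.

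The myeloid genes are given by stage. The primary granule genes, made in promyelocytes, were abundant before 5-FU, and 6 of 12 were called higher (median 0.68), against 6.0% of all genes. Elane, neutrophil elastase, rose from 127, 112 and 118 CPM to 460, 492 and 456 CPM (1.97, SE 0.06, adjusted p 1.63e-07). Ms4a3, a marker of granulocyte and monocyte progenitors, rose from 15.1 to 83.7 CPM, Prtn3, proteinase 3, from 135 to 293 CPM, Ctsg, cathepsin G, from 164 to 294 CPM, and Lyz2, lysozyme, from 57.3 to 161 CPM. Mpo, myeloperoxidase, was at 3039, 3122 and 3200 CPM before and 3699, 3345 and 3731 CPM after 5-FU, a log2 difference of 0.20 (SE 0.04) under the fold threshold.

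The transcription factors and receptors of the myeloid lineage gave 6 calls higher of 16 (median 0.33), against 6.0% of all genes. None was called lower, while 1 was without replicate 3 of either group. Cebpe, the factor of secondary granule genes, rose from 1.41, 1.15 and 1.22 CPM to 12.4, 9.86 and 11.5 CPM (3.15, SE 0.21). Gfi1, the repressor that sets neutrophil against monocyte fate, rose from 13.2, 22.4 and 24.5 CPM to 37, 43 and 44.6 CPM (1.05, SE 0.21). Csf2ra, a GM-CSF receptor chain, rose from 23.7, 26.2 and 27.9 CPM to 50.3, 53.7 and 52.9 CPM.

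Of the 18 later neutrophil genes tested, 16 were called higher and none lower, beside 6.0% and 4.07% of all genes. Their median log2 fold change was 8.10, or 7.35 with the 5 genes at 0 counts in every untreated library set to their lower bound. With at least 10 counts asked of every library, which drops genes near 0 before treatment, 4 were called higher (median 2.41). S100a8 and S100a9, the calprotectin subunits, rose from 0.615, 0.443 and 0.262 CPM to 125, 124 and 140 CPM and from 0.615, 1.73 and 1.01 CPM to 325, 309 and 309 CPM. Ly6g, the antigen bound by the Gr-1 antibody, had 0 counts before and 1.56, 0.578 and 1.58 CPM after 5-FU. The summed list was at 45.2 to 54 CPM before and at 1254 to 1278 CPM after 5-FU, or 0.126% to 0.128% of all counts. In Tespa1+/+ LSKs the same sum was 56.2 to 64.7 CPM before and 76.1 to 84.5 CPM after 5-FU.

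Of the 10 eosinophil genes 8 were called higher (median 7.16), against 6.0% of all genes. Il5ra, the interleukin-5 receptor, was not called, at 0.703, 0.222 and 0.655 CPM before and 0.544, 2.23 and 0.585 CPM after 5-FU. With at least 10 counts in every library, 3 were called higher. The summed list was at 8.6 to 9.96 CPM before 5-FU and at 674 to 709.7 CPM after it. In Tespa1+/+ LSKs it was between 3.76 and 7.48 CPM in all 6 libraries. As for the neutrophil list, mature cells in the sorted fraction and transcripts within LSKs cannot be told apart in these libraries.

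Of the 12 mast cell and basophil genes tested, 10 were called higher, against 6.0% of all genes (median 2.45, or 2.25 with 3 genes at their lower bound). Of the 14 listed, 5 had at most 3 counts in every untreated library, so some passed the filter only through their treated counts. Cpa3, the mast cell carboxypeptidase, rose from 11.3, 11.5 and 13.5 CPM to 33.9, 27.7 and 30.7 CPM. Fcer1a, the alpha chain of the IgE receptor, had 0 counts before and 2.58, 2.23 and 3.51 CPM after 5-FU, at least 21-fold higher. Ms4a2, the beta chain, rose from 1.54 CPM ± 1.08 to 12.5 CPM ± 5.7, and Mcpt8, the basophil protease, from 2.17 CPM ± 0.494 to 16.4 CPM ± 1.38 (SD, n = 3). The summed level of the list overlapped between the groups, at 151 to 323 CPM and 297 to 328 CPM.

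Monocyte and macrophage genes were divided, with 7 of 18 called higher and 3 lower (median 0.49), beside 6.0% and 4.07% of all genes. When every library had to hold at least 10 counts, 4 were called higher. The summed level of the list was 620.4 to 653 CPM before and 602 to 619 CPM after 5-FU. Lgals3, galectin-3, rose from 0.631 to 7.75 CPM, Vcam1, an adhesion molecule of BM macrophages, from 2.83 to 16.8 CPM, and Ccr2, the receptor for monocyte egress, from 68.1 to 117 CPM. The 3 lower genes were Ly86, which encodes MD-1 (30.2 to 14.1 CPM), Mpeg1, perforin-2 (141 to 86.3 CPM), and Ms4a6c (74.7 to 47.6 CPM). Cd68, a lysosomal protein of macrophages, had an adjusted p of 0.125. Of 7 stromal and endothelial genes tested, Col1a2, a collagen I chain, was called higher (1.05 to 7.47 CPM), while Pdgfrb (64.1 to 25.5 CPM), Cdh5 (3.61 to 1.26 CPM) and Stab2 (8.2 to 3.66 CPM) were called lower. The other 5 of 12 did not pass the filter on low counts.

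**Figure D2:**
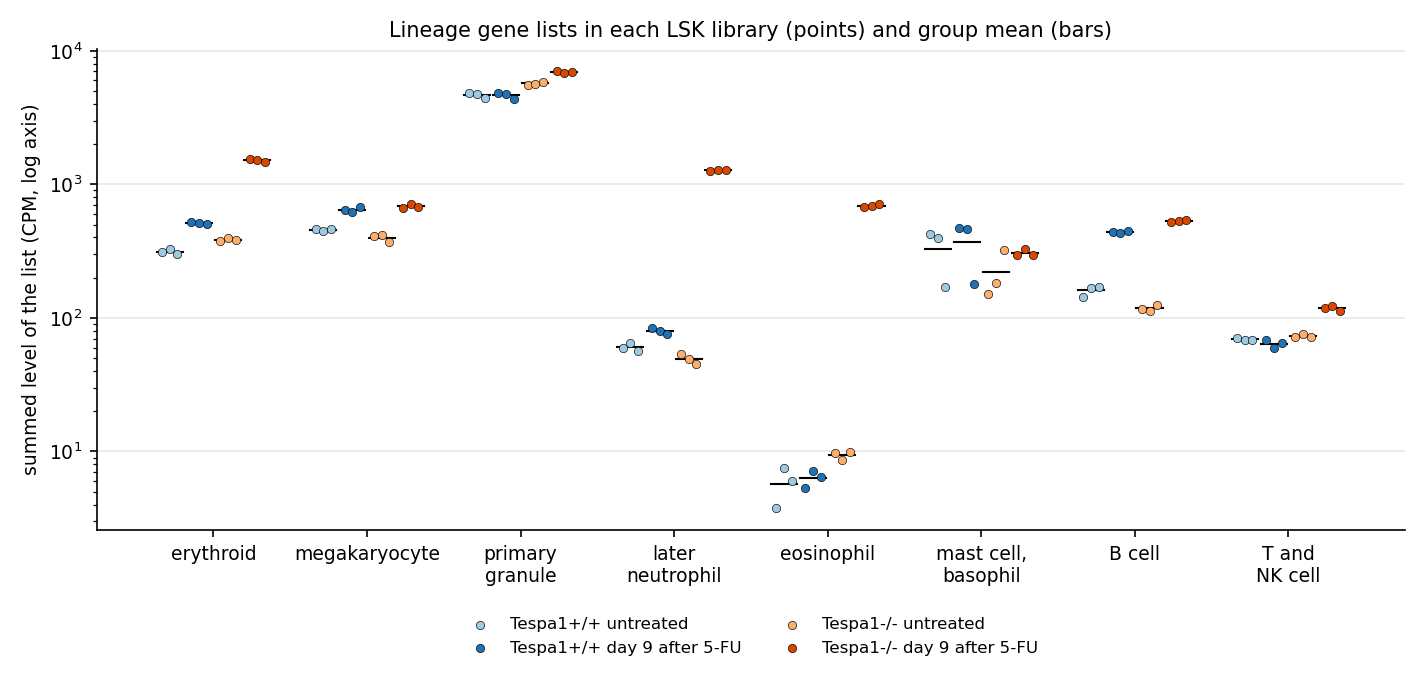
Summed level of 8 lineage gene lists in CPM (log axis) in each of the 12 LSK libraries, coloured by genotype and treatment, with the group mean as a bar. The 3 Tespa1-/- libraries after 5-FU stand at 1254 to 1278 CPM for later neutrophil genes and at 674 to 709.7 CPM for eosinophil genes, above all 9 other libraries, while the mast cell and basophil sums overlap.

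Of the 54 G2/M genes, 11 were called higher and none lower, and 38 passed the adjusted p in the higher direction (median 0.38), where 6.0% of all genes were called higher and 10.7% passed the adjusted p. Mki67 (7:135689784-135716361), which encodes the Ki-67 antigen of cycling cells, rose from 1315, 1344 and 1313 CPM to 2090.5, 2045 and 2044 CPM (0.63, SE 0.02, adjusted p 6.56e-07). Ccnb2, cyclin B2 of mitotic entry, rose from 48.2, 46.5 and 39.9 CPM to 78.1, 83.7 and 77 CPM (0.82, SE 0.09). Cdk1, the mitotic kinase, and Top2a, topoisomerase II, had log2 differences of 0.31 (adjusted p 0.0283) and 0.23 (adjusted p 0.00161), under the fold threshold. The summed list was at 7291 to 7318 CPM before and at 9441 to 9580 CPM after 5-FU. In Tespa1+/+ LSKs it was 7372 to 7527 CPM before and 6931 to 7061 CPM after 5-FU.

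Of the 43 S-phase genes, 2 were called higher and none lower (median 0.02), beside 6.0% and 4.07% of all genes. Rrm2, the ribonucleotide reductase subunit that supplies deoxynucleotides, rose from 69.5, 60.8 and 65.2 CPM to 143, 143 and 139 CPM (1.11, SE 0.06, adjusted p 9.37e-06). E2f8, an atypical E2F repressor, rose from 86.9 to 135 CPM, and its log2 fold change of 0.55 without treated replicate 3 was under the fold threshold. Pcna, the sliding clamp of replication forks, was at 86, 93.5 and 88.7 CPM before and at 88.5, 88 and 73.7 CPM after 5-FU (adjusted p 0.436). The summed S-phase list overlapped between the groups, at 5048 to 5107 CPM and 5104 to 5186 CPM.

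The G1 regulators gave 2 calls higher and 1 lower of 12 (median -0.07), beside 6.0% and 4.07% of all genes. E2f2, an activator of S-phase entry that is strong in red cell precursors, rose from 27.1, 26.5 and 26.7 CPM to 76.8, 66 and 71.7 CPM (1.41, SE 0.08), and Ccne1, cyclin E1, from 14.6 to 28.7 CPM. Ccnd2, cyclin D2, fell from 343, 339 and 332 CPM to 216, 216 and 216 CPM (-0.65, SE 0.04). Cdk6, its partner kinase, had a log2 difference of -0.30 (SE 0.03, adjusted p 0.000142), under the fold threshold. Of 14 brakes on the cycle, 3 were called higher and none lower (median 0.05), beside the same shares of all genes. Foxo1, a factor of quiescence and of B cell genes, rose from 20.9, 22.7 and 21.5 CPM to 49.2, 43.4 and 38.5 CPM (1.01, SE 0.11), and the INK4 inhibitor Cdkn2c from 14.7 to 27 CPM. The call of Cdkn2d (11.7 to 22.7 CPM) was lost when any library other than untreated replicate 3 was left out (adjusted p 0.0554 to 0.11). Cdkn1a, which encodes p21, had 61, 57.9 and 59.2 CPM before and 50.7, 52 and 45.4 CPM after 5-FU, a log2 difference of -0.27 (adjusted p 0.0404) under the fold threshold.

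Of 22 fluoropyrimidine and thymidylate genes tested, Rrm2 alone was called higher and Dctd alone lower (median -0.04), shares close to the 6.0% and 4.07% of all genes. Tyms, the thymidylate synthase that 5-FU inhibits, was at 39.8, 38.1 and 36.1 CPM before and at 36.4, 39.7 and 44.7 CPM after 5-FU (adjusted p 0.63). Umps, which turns 5-FU into a nucleotide, had a log2 difference of -0.42 (adjusted p 0.00273), under the fold threshold. Dctd, the dCMP deaminase, went from 20.4 to 12.5 CPM and lost its call without treated replicate 1 or 3 or untreated replicate 2 (adjusted p 0.0739 to 0.0858). The number called lower was 0 without those libraries and 2 without treated replicate 2 or untreated replicate 3.

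Targets of p53 gave 1 call higher and 3 lower of 23 (median 0.06), beside 6.0% and 4.07% of all genes. Trp53inp1 (19.2 to 41.4 CPM) lost its call without untreated replicate 2 or any treated library (adjusted p 0.0763 to 0.0897). Phlda3 (2.22 to 0.929 CPM) lost it whichever library was left out (adjusted p 0.0652 to 0.194), and Tnfrsf10b (7.45 to 4.32 CPM) when any library but untreated replicate 3 was left out (adjusted p 0.0589 to 0.129). No member was called higher without treated replicate 3 or untreated replicate 2, 2 were without untreated replicate 1 or 3, and 3 without treated replicate 2. The number called lower was 1 when any library but untreated replicate 3 was left out. Plk2, a stress kinase, fell from 44.6, 46.1 and 47.6 CPM to 26.4, 25.3 and 28.9 CPM (-0.78, SE 0.09). In the BCL2 family, both calls of 13 tested were lower, while 3 members were called higher without treated replicate 2 and 1 without treated replicate 1 or untreated replicate 1 or 3. Bcl2, the survival factor, fell from 177, 177 and 187 CPM to 93.8, 97.6 and 104 CPM (-0.88, SE 0.06, adjusted p 1.72e-05), and Bcl2l11, which encodes the death factor BIM, from 80.7, 109 and 112 CPM to 41.7, 35.5 and 53.4 CPM (-1.21, SE 0.16). Mcl1, a survival factor that HSCs need, had a log2 difference of -0.22, under the fold threshold. None of 20 DNA repair genes was called by edgeR, and 1 passed the adjusted p in each direction.

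**Figure D3:**
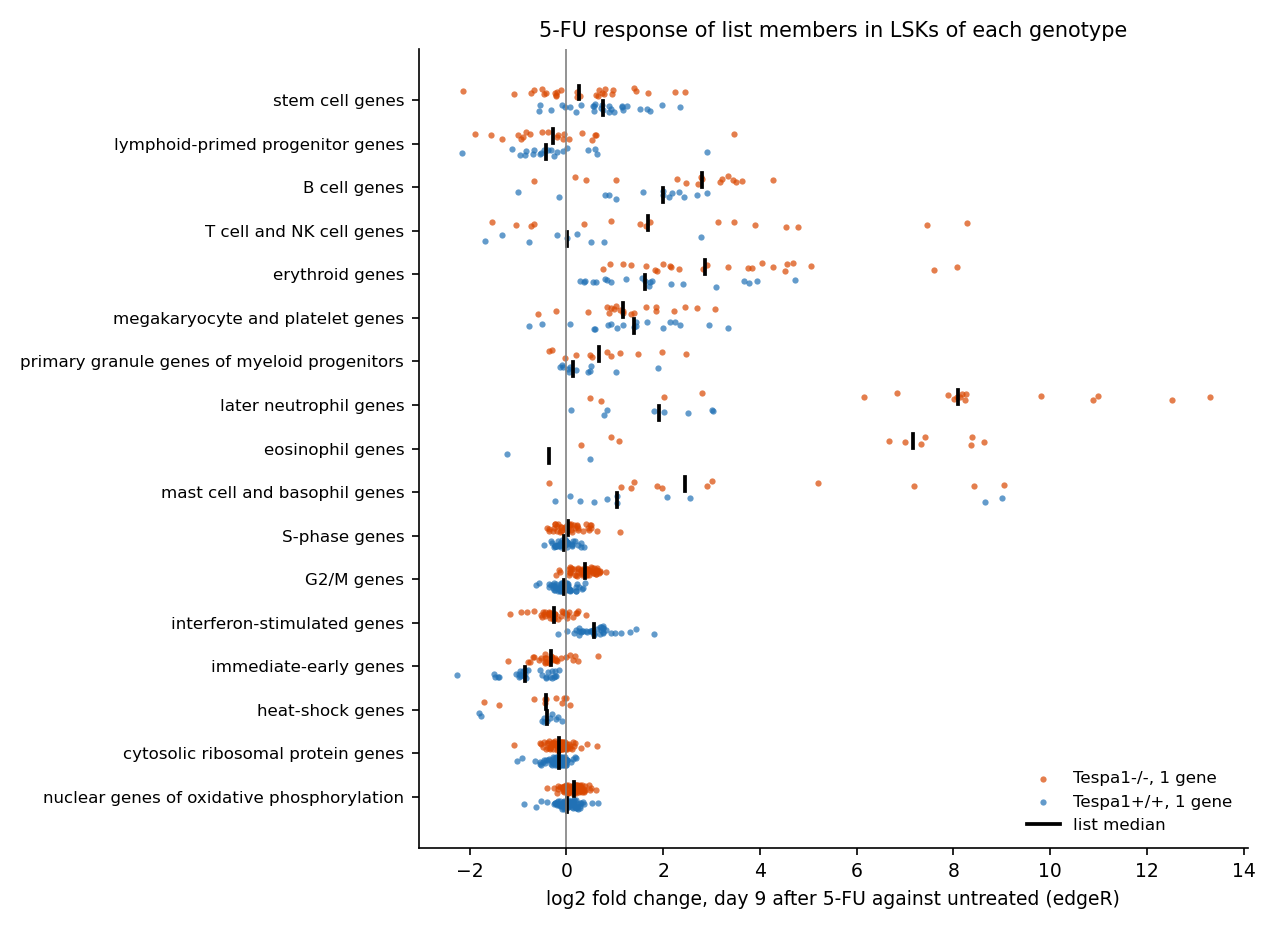
Log2 fold change (day 9 after 5-FU against untreated, edgeR) of every tested member of 17 gene lists, in Tespa1-/- LSKs (orange) and, for members tested there, in Tespa1+/+ LSKs (blue), with each list's median as a black bar. In Tespa1-/- LSKs the medians run from -0.42 for heat-shock genes to 8.10 for later neutrophil genes.

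Interferon-stimulated genes and G2/M genes share short promoter motifs, and the sequences around a motif are shown for 3 G2/M genes called higher, for Ifi203, which was called lower, and for Ifit3, Ifit1 and Isg15, which were not called but whose response differed between genotypes. They were read from RefSeq (GRCm38.p6) windows from 250 bases before to 50 bases after each gene's start. Capitals mark a single match of the motif, on either strand, with 20 bases on each side. Ifit3, Ifit1 and Isg15 hold 3 matches and Mki67 holds 2 before the start, some of them left in lower case in the stretch shown. For the interferon-stimulated response element the core GAAANNGAA was searched.
Ifi203: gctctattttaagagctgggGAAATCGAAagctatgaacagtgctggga
Ifit3: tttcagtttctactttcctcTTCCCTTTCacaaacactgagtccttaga
Ifit1: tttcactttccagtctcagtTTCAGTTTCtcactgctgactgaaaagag
Isg15: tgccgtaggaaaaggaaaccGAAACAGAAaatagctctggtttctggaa
These lie at chr1:173942499-173942547 (minus strand, motif 35 bases before the start), chr19:34583407-34583455 (plus, 102 bases), chr19:34640785-34640833 (plus, 84 bases) and chr4:156200856-156200904 (minus, 66 bases). For the cell cycle genes homology region (CHR), bound by the complex that represses mitotic genes in resting cells, TTTGAA was searched.
Mki67: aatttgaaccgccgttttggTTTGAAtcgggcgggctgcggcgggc
Ccnb2: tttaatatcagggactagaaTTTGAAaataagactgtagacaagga
Ube2c: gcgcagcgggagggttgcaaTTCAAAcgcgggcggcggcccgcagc
These lie at chr7:135716452-135716497 (minus strand, 98 bases before the start), chr9:70421696-70421741 (minus, 167 bases) and chr2:164769880-164769925 (plus, 29 bases). The interferon core was held by 19 of the 27 windows of the list (70.4%, for 24 of its 37 genes) and by 8.56% of all 32851 windows. The CHR was held by 34 of the 52 windows of G2/M genes (65.4%, for 47 of 54 genes), by 17.6% of the windows of S-phase genes and by 17.9% of all windows. The E2F sites TTTGGCGC and TTTCCCGC were each held by 14.7% of the S-phase windows, against 0.514% and 1.07% of all windows. Each motif was counted on its own, so sites of different motifs may overlap, and a match describes these letters only. Ube2c, the ubiquitin-conjugating enzyme of mitotic exit, rose from 40.4, 40.3 and 44.7 CPM to 71.8, 57.7 and 67.6 CPM, and without treated replicate 1 its log2 fold change of 0.58 was under the fold threshold.

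Interferon-stimulated genes were called in the lower direction only, in Tespa1-/- LSKs. Of 37 tested, 4 were called lower and none higher, and 15 passed the adjusted p in the lower direction against 1 in the higher (median -0.25). Over all genes, 4.07% were called lower and 8.64% passed the adjusted p in that direction. Ifi44, an interferon-induced antiviral gene, fell from 56.8, 68.3 and 60 CPM to 23.9, 34.3 and 24.9 CPM (-1.16, SE 0.14, adjusted p 0.000747). Ifi203, a DNA-binding protein of the IFI200 family, fell from 214, 231 and 209 CPM to 134, 142 and 139 CPM (-0.66, SE 0.06), and Iigp1, an immunity-related GTPase, from 37.9 CPM ± 1.82 to 21.7 CPM ± 4.88 (SD, n = 3). Mx1, a dynamin-like antiviral GTPase, fell from 29, 34.3 and 30.1 CPM to 18.3, 10.2 and 20.3 CPM (-0.94), a call lost without untreated replicate 2 (adjusted p 0.0764) or 3 (adjusted p 0.0553).

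Central members of the list did not pass both thresholds. Ifit3, which binds foreign RNA with its relatives, had 14.5, 13.3 and 14.4 CPM before and 9.03, 11.2 and 11.1 CPM after 5-FU (-0.44, adjusted p 0.0741), and Ifit1 had a log2 difference of -0.27 (adjusted p 0.129). Irf7, a factor that carries the signal, had a log2 difference of -0.25 (adjusted p 0.0437), under the fold threshold. Isg15, the ubiquitin-like modifier, was at 14.7, 16.7 and 14.8 CPM before and at 13.9, 16.4 and 16.4 CPM after 5-FU (0.01, SE 0.14). The summed list was at 2436 to 2570.5 CPM before and at 2070.3 to 2092 CPM after 5-FU. In Tespa1+/+ LSKs it was 2720 to 2824 CPM before and 3812 to 3844 CPM after 5-FU. None of 12 MHC class I genes was called, and of 9 MHC class II genes H2-Ob alone was called lower (26.8 to 15.7 CPM, and lost without untreated replicate 1 with an adjusted p of 0.0592), and 1 was called higher without replicate 1 of either group, treated replicate 2 or untreated replicate 3.

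Immediate-early genes are switched on within minutes of a signal or of handling. Of 30 tested, 5 were called lower and none higher, and 22 passed the adjusted p in the lower direction (median -0.31), where 4.07% of all genes were called lower and 8.64% passed the adjusted p. Fos, a subunit of the AP-1 factor, fell from 1221, 1208 and 1248 CPM to 743, 756 and 702 CPM (-0.74, SE 0.03, adjusted p 2.74e-06). The orphan receptors Nr4a1 and Nr4a3 fell from 364 to 210 CPM (-0.79, SE 0.07) and from 32.4 to 14.1 CPM (-1.20, SE 0.18), the phosphatase Dusp2 from 202 to 127 CPM, and the demethylase Kdm6b from 536 to 335 CPM. Jun, Egr1 and Klf2 had log2 differences of -0.24, -0.22 and -0.45, under the fold threshold. Heat-shock genes gave 3 calls lower of 11 (median -0.42). The inducible HSP70 genes Hspa1b (111, 119 and 109 CPM to 30.1, 41.3 and 33.4 CPM) and Hspa1a (39.4 to 15 CPM) are near copies of each other, and the third was Hsph1 (206 to 130.4 CPM).

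Of the 6 c-Myc targets that the study chose and names, Nr4a1 and Nr4a3 were called lower and none higher (median -0.44). As the list was picked on libraries of this series, it is not independent evidence of its direction. Jmjd1c, a demethylase of that list, had a log2 difference of -0.50 (SE 0.04), under the fold threshold. None of 32 genes of ribosome biogenesis was called (median -0.06), although 5 passed the adjusted p in the lower direction. None of 79 ribosomal protein genes was called, and 24 passed the adjusted p in the lower direction (median -0.15). Without treated replicate 1 or 2 or untreated replicate 1, 1 was called lower.

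Of the 13 genes of the mitochondrial genome, 12 passed the adjusted p in the lower direction (median -0.35). mt-Nd3, a complex I subunit, alone passed the fold threshold (45.1 to 30 CPM), and without treated replicate 1 its log2 fold change of -0.56 did not. mt-Nd1 and mt-Co1, of complexes I and IV, had log2 differences of -0.42 and -0.22. These 13 genes took 0.984% to 1.001% of counts before and 0.787% to 0.835% after 5-FU. All mitochondrial transcripts, most of them ribosomal RNA, took 9.42% to 9.5% and 8.15% to 8.71%, and the part of this share in the other results was not tested. None of the 75 nuclear genes of oxidative phosphorylation was called, with 8 past the adjusted p in the higher and 1 in the lower direction (median 0.16), and 1 was called higher without treated replicate 2 or untreated replicate 3. In glycolysis, Hk1, hexokinase 1, rose from 206, 174 and 187 CPM to 336, 331 and 335 CPM (0.82, SE 0.06), while the glucose transporter Slc2a1 fell from 30 to 19.2 CPM, a call lost without treated replicate 1 (-0.57). The other 19 of 21 were not called, and without treated replicate 1 or untreated replicate 2 the number called higher was 2. By the adjusted p alone, 7 glycolysis genes passed in the higher and 1 in the lower direction, against 10.7% and 8.64% of all genes. Their summed level was 2341 to 2391 CPM before and 2731 to 2994 CPM after 5-FU. With the fold threshold, both shares of called glycolysis genes are close to those of all genes, 6.0% higher and 4.07% lower. Of 18 stress response genes, again close to that share, Asns, asparagine synthetase, alone was called, from 6.63, 7.14 and 7.95 CPM to 20.2, 22.8 and 20.3 CPM (1.54, SE 0.14). None of 20 cholesterol synthesis genes was called, and 1 was called higher without untreated replicate 3. Of 10 imprinted growth-control genes tested (median -0.37), Grb10, an adaptor that restrains growth signals, was called higher (11.8 to 28.7 CPM) and none lower. In this list 1 was called lower without treated replicate 1 and 2 without treated replicate 3. The median of the list changed sign when every library had to hold at least 10 counts.

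**Figure D4:**
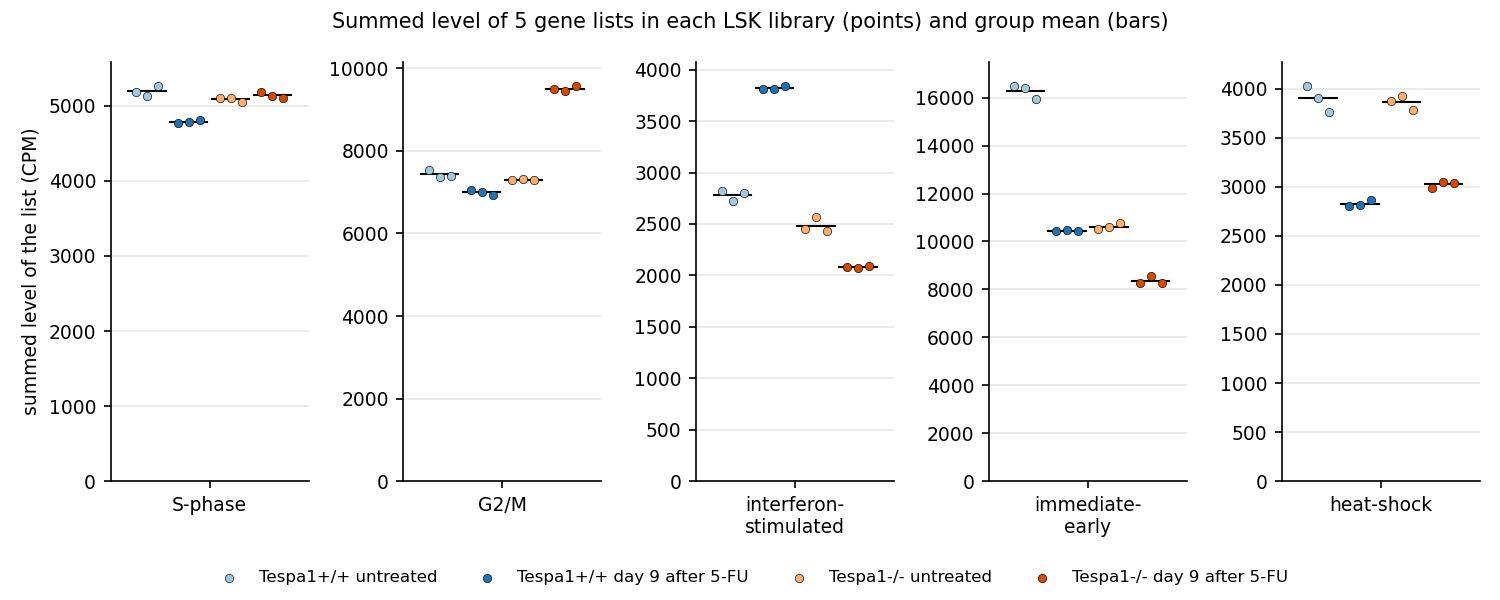
Summed level of 5 gene lists in CPM, from 0, in each of the 12 LSK libraries, coloured by genotype and treatment, with the group mean as a bar. In Tespa1-/- LSKs the G2/M sum stands at 9441 to 9580 CPM after 5-FU against 7291 to 7318 CPM before, and the interferon sum at 2070.3 to 2092 CPM against 2436 to 2570.5 CPM.

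Genes of homing, adhesion and cytokine reception changed in both directions. Of 19 niche and adhesion genes, 6 were called higher and 3 lower, beside 6.0% and 4.07% of all genes. Vcam1 had the largest rise, from 2.59, 2.79 and 3.1 CPM to 13.2, 18.5 and 18.7 CPM (2.56, SE 0.20). Cd44, the hyaluronan receptor, fell from 297, 257 and 253 CPM to 144, 168 and 141 CPM (-0.84, SE 0.09), Cd93 from 430 to 268 CPM and Robo4, which anchors HSCs in the niche, from 11.5 to 5.66 CPM. Cxcr4, the receptor for CXCL12, had 90.2, 93.8 and 94.1 CPM before and 67.8, 68.9 and 69.6 CPM after 5-FU, a log2 difference of -0.43 (SE 0.06) under the fold threshold.

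Of 22 cytokine receptor genes, 5 were called higher: Epor, Csf2ra, Csf2rb (68.8 to 130 CPM), Csf2rb2 (13.1 to 28.4 CPM) and Il1rl1, the interleukin-33 receptor (7.48 to 19.9 CPM). The 3 called lower were Flt3, Il1r1 and Il6ra. Over all genes, 6.0% were called higher and 4.07% lower. Il1r1, the interleukin-1 receptor that drives HSCs toward myeloid fate, fell from 60.7, 63.6 and 64.1 CPM to 21.2, 21.5 and 19.4 CPM (-1.60, SE 0.08, adjusted p 4.36e-06). Il6ra fell from 79.6 to 46.9 CPM, and without treated replicate 1 its log2 fold change of -0.57 was under the fold threshold. Of 15 lamin, annexin, galectin and S100 genes, 4 were called higher and none lower (median 0.50). They were Lmna, lamin A of the nuclear envelope, Anxa1, annexin A1 (41.9, 41.3 and 42.4 CPM to 127, 121 and 129 CPM), Lgals3, and S100a6 (2.52 to 12.3 CPM).

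The response was set beside that of Tespa1+/+ LSKs by testing, over all 12 libraries, whether the effect of 5-FU depended on genotype (the interaction). In Tespa1+/+ LSKs alone, 466 of 17002 genes were called higher (2.74%) and 287 lower (1.69%). Of genes tested in both genotypes, 232 were called higher in both and 103 lower in both, while 7 were higher in Tespa1-/- and lower in Tespa1+/+ LSKs and 9 the reverse. The 5-FU response itself was higher in Tespa1-/- LSKs, by a ratio of folds above 1.5, for 311 of 18696 genes (1.66%) and lower for 290 (1.55%). DESeq2 called 458 and 506, and without 1 library the counts went down to 206 (without treated Tespa1-/- replicate 2) and 181 (without untreated Tespa1-/- replicate 2), so which direction held more genes depended on the setting. Among the genes called in Tespa1-/- LSKs, 198 of the 1033 higher ones were among those 311, and 125 of the 702 lower ones among those 290.

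The lists differed in how far the genotypes went apart. For erythroid genes the response was higher in Tespa1-/- LSKs for 11 of 24 (median 2.86, and 1.63 in Tespa1+/+), for later neutrophil genes for 7 of 18, for B cell genes for 6 of 16 (median 2.80, and 2.005 in Tespa1+/+) and for megakaryocyte genes for 1 of 20 (median 1.17, and 1.40 in Tespa1+/+). For G2/M genes it was higher for 14 of 54 (median 0.38, and -0.06 in Tespa1+/+). For interferon-stimulated genes it was lower for 21 of 37 (median -0.25, and 0.57 in Tespa1+/+, where 16 were called higher). For immediate-early genes it was higher for 8 of 30, since the median fall was smaller, at -0.31 in Tespa1-/- and -0.85 in Tespa1+/+. Their summed level was 10515 to 10767 CPM before and 8259 to 8550 CPM after 5-FU in Tespa1-/- LSKs. In Tespa1+/+ LSKs it was 15936 to 16499 CPM before and 10426 to 10480 CPM after 5-FU. The sums were thus lower in Tespa1-/- LSKs both before and after 5-FU, a difference that was not tested here. For stem cell genes the response was lower for 3 of 28, with 13 called higher in Tespa1+/+ LSKs (median 0.75).

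By the smallest adjusted p of the interaction, the 5 genes with the higher response were Ahnak, Lmna, Igkc, Lyz2 and Cebpb. Ahnak, a giant scaffold protein, had 221, 232 and 239 CPM before and 309, 292 and 300.3 CPM after 5-FU in Tespa1-/- LSKs (0.38, SE 0.05), and means of 354 and 188 CPM in Tespa1+/+ LSKs. Lmna rose from 20.4, 21.1 and 19.2 CPM to 64.4, 63.2 and 60.1 CPM (1.62, SE 0.08) and had means of 55.7 and 35.8 CPM in Tespa1+/+ LSKs. Igkc, the kappa light chain constant region, rose from 21.7, 24.3 and 24.4 CPM to 52.5, 53.8 and 47.1 CPM, against means of 53.8 and 16.4 CPM in Tespa1+/+ LSKs. Cebpb, a factor of emergency granulopoiesis, was at 99.4 CPM ± 1.73 before and 101 CPM ± 6.92 after 5-FU (SD, n = 3), while its mean went from 205 to 91.6 CPM in Tespa1+/+ LSKs. The untreated means of Ahnak, Lmna, Igkc and Cebpb were lower in Tespa1-/- than in Tespa1+/+ LSKs, a difference that was not tested here, while Lyz2 started from 57.3 and 57.7 CPM and went to 161 and 54 CPM.

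The 5 with the lower response were Rprl3, Rnf213, Rn7s1, Rn7sk and Zfp990. Rnf213, a ubiquitin ligase induced by interferon, had 1130.45, 1171 and 1150.3 CPM before and 957.5, 976 and 951 CPM after 5-FU (-0.26, SE 0.03), and means of 1692 and 2250.3 CPM in Tespa1+/+ LSKs. Rn7s1 and Rn7sk, the RNAs of the signal recognition particle and of the 7SK complex, had log2 differences of -0.42 and -0.37 in Tespa1-/- and 0.27 and 0.42 in Tespa1+/+ LSKs. They lack a poly-A tail and have many genomic copies, so their counts in poly-A libraries are uncertain. Zfp990, a zinc finger gene of a large family of close copies, fell from 55.3, 56.3 and 53.7 CPM to 13.3, 19.3 and 9.41 CPM, while in Tespa1+/+ LSKs its mean was 0.209 CPM before and 17.2 CPM after 5-FU.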

How the data were processed

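RNA-seq of sorted LSKs was used, with groups taken from the labels. The authors deposited counts of reads per gene (raw, GRCm38) and FPKM values, which were used only for the gate genes. Per the labels, stranded poly-A libraries were sequenced in pairs, and the submitters' notes name CASAVA 1.8, HISAT2, StringTie and edgeR, with no roles. The use of strand in counting is not given in the sources used here. Of the 161 genes named, 12 overlap a gene on the same strand and 37 one on the opposite strand, so their counts are uncertain. Of the identifiers, 99.6% are in GENCODE M21. Gene positions are those of the table.

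The 6 Tespa1-/- libraries (22118154 to 27445161 counts) were fitted in R 4.3.3 with edgeR 4.0.16 (filterByExpr with a minimum count of 10, TMM, quasi-likelihood test, treatment as the factor). The interaction used the 12 libraries. CPM values use TMM factors of the 12 libraries. The scripts were run on simulated data with less spread between replicates than these libraries, which checks the code but not the error rate here. Alternatives were DESeq2 1.42.0, RLE factors, library totals, other filters and thresholds, 1 joint fit, a replicate block and leaving out each library. Other steps used Python 3.11.15, pandas 2.3.3, SciPy 1.17.1 and matplotlib 3.10.9.

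The 39 gene lists and the comparison were chosen with earlier results of these data known. The genes named are Tespa1, Cops6, Myc, Kit and Ly6a, the first 4 members of a list, a list's largest called rise and fall, the 10 largest rises and falls (at least 5 CPM, groups not overlapping, predicted genes left out) and the 5 smallest adjusted p of the interaction in each direction. Names of the first 2 list rules that add nothing were left out, and some genes of these rules are not reported here. Itgam, Fgd5, Tek, Cd34, Notch1, Hba-a1, Plk2, Ifit3, Ifi203, Mx1, Iigp1, Klf2, Anxa1, Csf2ra, Hoxa9, Cdkn2d, Rag2, Ms4a6c, Pdgfrb, Stab2, E2f8, Ccne1, Tnfrsf10b, Dusp2, Kdm6b, Cd93, S100a6, Csf2rb, Csf2rb2, Il1rl1, Ube2c and Ptprc were chosen after their values were seen.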

Additional observations from a re-analysis of the deposited data

Results flagged for a closer look

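For 64 of the 161 genes named, the 5-FU response differed between genotypes (interaction in all 12 libraries, 3 a group, edgeR's quasi-likelihood test, adjusted p below 0.05 and ratio of folds above 1.5). The response was higher in Tespa1-/- LSKs for 39 and lower for 25. Over all genes the shares were 1.66% and 1.55%, and the named genes include 10 chosen by this test and others chosen after their values were seen, so the count is no result about them. Each value below is the log2 response of Tespa1-/- minus that of Tespa1+/+ LSKs.

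Among granulocyte genes the difference was 0.96 for Elane, 0.59 for Ms4a3, 1.58 for Lyz2, 0.93 for Itgam, 7.28 for S100a8, 5.20 for S100a9 and 9.80 for Prg2. It was 15.44 for Retnlg and 17.0003 for Wfdc21, and 12.10 for the NK and T cell gene Gzma, which are near 0 counts in whole groups, so these values depend on the prior count of the fit and are no measure of size. For the mast cell, monocyte and macrophage genes it was 2.64 for Mcpt8, 3.22 for Lgals3, 2.43 for Vcam1 and -0.77 for Ms4a6c. Red cell and platelet genes differed by 2.17 for Hbb-bt, 4.66 for Hba-a1 and 3.57 for Thbs1, and by 7.10 for Slc4a1, which also depends on the prior count. B cell genes differed by 1.39 for Pax5, 0.75 for Ebf1, 1.46 for Cd79a and 2.83 for Igkc.

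Cell cycle and survival genes differed by 0.63 for Cdk1, 0.9997 for Ccnb2, 0.94 for Ube2c, 0.83 for Rrm2, 0.98 for E2f2, 1.21 for Cdkn2c, 0.74 for Foxo1 and 0.77 for Plk2. Of the interferon list the response was lower for 21 of 37 genes, and among the named interferon-induced genes the difference was -0.80 for Isg15, -1.70 for Ifit1, -0.81 for Irf7, -2.23 for Ifit3, -1.41 for Ifi44, -0.96 for Ifi203, -2.25 for Mx1, -1.56 for Iigp1 and -0.68 for Rnf213. Of the immediate-early list it was higher for 8 of 30 genes, with a difference of 0.62 for Nr4a1, 1.08 for Nr4a3 and 0.99 for Klf2. All of these named immediate-early genes fell in both genotypes, and less in Tespa1-/- LSKs.

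Stem and progenitor genes gave -1.32 for Fgd5 and -0.59 for Flt3, and receptor and adhesion genes -1.01 for Il1r1, -0.99 for Robo4 and 1.31 for Csf2ra. The structural, metabolic and regulatory genes gave 1.29 for Ahnak, 2.26 for Lmna, 1.48 for Anxa1, 1.18 for Cebpb, 0.59 for Hk1 and 1.41 for Asns. The targeted gene Tespa1 gave -1.05. Of the genes with the largest falls, Slc27a2 gave -4.19, St8sia1 -1.82, Sema3d -1.73, Ccser1 -1.21, Tlr7 -2.76 and Zfp618 -1.59. Rprl3 gave -12.69, Zfp990 -8.32, Rn7s1 -0.68 and Rn7sk -0.77, all genes with uncertain read assignment. The value of Rprl3, with at most 2 counts in any treated Tespa1-/- library, and that of Zfp990, near 0 in untreated Tespa1+/+ LSKs, depend on the prior count too.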

How the results depend on the processing

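Against 1033 higher and 702 lower genes, DESeq2 called 1112 and 793, RLE factors 1033 and 703, library totals 1065 and 676, no filter 951 and 735, a minimum of 10 counts 860 and 618, and the joint fit of 12 libraries 882 and 629. Without the fold threshold the counts were 1847 and 1489, with a 2-fold threshold 686 and 357, and with an unadjusted p 1341 and 1133. Without 1 library they ran from 868 to 971 and from 495 to 768. Without the filter the median of all genes was -0.38, over 37507 genes.

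For the interaction, against 311 and 290 genes, DESeq2 called 458 and 506, no threshold on the ratio gave 564 and 372, library totals gave 253 and 310, and a minimum of 10 counts gave 256 and 286. More genes were thus lower than higher under DESeq2, library totals and this minimum, and also without any of the treated Tespa1-/- libraries or untreated Tespa1+/+ replicate 1. Without 1 library the counts ran from 206 (without treated Tespa1-/- replicate 2) to 280 and from 181 to 306, with 192, 181 and 190 lower genes without untreated Tespa1-/- replicate 1, 2 or 3. The causes were not tested.

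The replicate block gave 929 and 587 genes, and 265 and 226 for the interaction. Deviations of same-numbered Tespa1-/- libraries correlated at -0.019, 0.029 and -0.034 over 11198 genes, so no pairing by number was visible there. This cannot exclude that equal numbers share a batch, which the labels do not state. The Tespa1+/+ libraries were not examined in this way.

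Of 126 called genes named, 19 lost the call in 54 of 756 values without 1 library, 6 in 14 of 865 values under other alternatives, and none changed sign. Cebpb and Isg15, not called, changed sign without 1 library: Cebpb ran from -0.034 to 0.0625 and Isg15 from -0.0272 to 0.0899. Ratios against a group with 1 to 3 counts have wide counting intervals.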
